A study of Mus musculus with 7 samples.

Results

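Hepatocytes differ along the path that blood takes through the liver lobule, and 10 genes that mark the ends of this path were followed after hepatocyte Dicer1 was targeted. Pericentral genes, active next to the central vein, were Glul, Oat, Slc1a2, Rhbg, Lgr5 and Axin2. Periportal genes, active next to the portal vein, were Gls2, Hal, Sds and Cdh1. The genes were chosen as known markers of these positions, with earlier results of these data known. Each was read from the probe set that the platform annotation names for it. A named probe set was found for 8 of the 10 genes, among 16819 genes in all. These were the 6 pericentral genes and 2 of the 4 periportal ones, Hal and Cdh1. Gls2, the liver glutaminase, and Sds, serine dehydratase, are not analysed here. The periportal end therefore rested on 2 genes.

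RNA from whole liver of male Dicer1 fl/fl mice was measured on 7 Affymetrix whole-transcript arrays. All mice were of mixed 129S4 and C57BL/6 background, carried the floxed allele in every group and had fasted for 4 h before the liver was taken. The control group (0 weeks) had 3 arrays. The other groups had 2 arrays each, from livers 2 weeks and 4 weeks after AAV8-Ttr-Cre. In this adeno-associated virus vector the transthyretin promoter drives Cre recombinase in hepatocytes. Injection took place at 8 to 10 weeks of age. There was no group with a Cre-free virus and none of untreated mice at 2 or 4 weeks, so the effects of virus, Cre, elapsed time and loss of Dicer1 cannot be told apart. Arrays of 1 group are biological replicates per the labels.

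The pericentral zone is known for taking up the ammonium and glutamate that escape the rest of the lobule and turning them into glutamine. Wnt proteins from the central vein endothelium, strengthened by R-spondins, stabilise beta-catenin in the neighbouring hepatocytes and keep the pericentral genes on. The periportal zone is known for breaking down glutamine, histidine and serine, for the urea cycle and for making glucose.

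Dicer1, which encodes the ribonuclease that matures microRNA precursors, was lower after Cre by 0.71 on the log2 scale in the limma fit (log2 difference -0.71, standard error (SE) of the fit 0.07, adjusted p = 0.00675). Its signal was 7.79 to 8.05 on the 4 arrays after Cre and 8.58 to 8.73 on the 3 control arrays. Whether the probe set covers the deleted part of the gene was not examined, so this is only a partial check of the labels. The hepatocyte markers, which include Alb, Apoa1 and Ttr, averaged 13.89 to 13.91 log2 units on the 4 arrays after Cre and 13.85 to 13.88 on the 3 control arrays. These signals lie near the top of the scale, whose highest value was 14.7, and 2 of the 9 markers, Trf (0.18, adjusted p = 0.0317) and Fgb (0.22, adjusted p = 0.0354), rose after Cre in limma. The medians of the arrays lay between 7.07 and 7.09, and no detection call came with the values. The number of arrays, 3, 2 and 2, limits the precision of every difference below.

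Promoters were available from RefSeq (GRCm38.p6) for 5 of the 10 genes, Glul, Oat, Slc1a2, Axin2 and Hal. For 3 of them the window of 250 bases before to 50 bases after the gene's start is shown because it holds, or lacks, the letters CTTTGA, the core of the motif bound by the TCF/LEF partners of beta-catenin. Capitals mark CTTTGA or its reverse complement TCAAAG. The Slc1a2 window lies at chr2:102706188-102706487 (plus strand), the Glul window at chr1:153899679-153899978 (plus strand) and the Hal window at chr10:93488518-93488817 (plus strand).
Slc1a2: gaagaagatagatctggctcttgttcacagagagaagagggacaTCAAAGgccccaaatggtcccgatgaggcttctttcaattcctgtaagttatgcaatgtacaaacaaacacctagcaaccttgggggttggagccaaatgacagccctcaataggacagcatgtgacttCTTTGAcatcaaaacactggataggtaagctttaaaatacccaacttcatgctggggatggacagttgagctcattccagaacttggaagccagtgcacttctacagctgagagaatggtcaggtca
Glul: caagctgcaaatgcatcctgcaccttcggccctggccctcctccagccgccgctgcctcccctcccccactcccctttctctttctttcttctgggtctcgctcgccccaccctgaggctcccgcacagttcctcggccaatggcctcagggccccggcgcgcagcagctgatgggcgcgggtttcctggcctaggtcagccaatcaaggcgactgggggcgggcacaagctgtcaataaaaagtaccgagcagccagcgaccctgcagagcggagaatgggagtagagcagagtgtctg
Hal: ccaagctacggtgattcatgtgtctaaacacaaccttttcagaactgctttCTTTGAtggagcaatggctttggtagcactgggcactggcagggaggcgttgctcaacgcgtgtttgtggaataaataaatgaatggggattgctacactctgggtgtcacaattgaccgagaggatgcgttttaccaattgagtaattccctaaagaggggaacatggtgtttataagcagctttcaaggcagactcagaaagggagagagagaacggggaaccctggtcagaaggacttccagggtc
The Slc1a2 window held 2 matches, beginning at positions -206 and -77 from the start, and the Hal window held 1, at -199. The windows of Glul, Oat and Axin2 held 0. Of 32851 mouse promoter windows of this length, 16% held the motif on either strand and 1.73% held 2 or more matches. A match here is a description of the letters and not a binding site.

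Glul encodes glutamine synthetase, which joins ammonia to glutamate in a ring of hepatocytes around the central vein. Its log2 signal (probe set 10350753) was 11.84, 11.76 and 11.91 at 0 weeks, 11.83 and 10.68 at 2 weeks, and 10.96 and 11.76 at 4 weeks. One array at each time after Cre was low and the other lay inside the control range, so the groups overlapped. Array 2 at 2 weeks was 2.22-fold below array 1 of the same time, and at 4 weeks the arrays differed 1.75-fold. The difference after Cre, the mean of both times minus control, was -0.53 (95% interval -1.32 to 0.27), and limma did not call it (adjusted p = 0.370). It was -0.81 without array 1 at 2 weeks and -0.24 without array 2 at 2 weeks. In whole-liver RNA, fewer pericentral cells and less Glul RNA per cell cannot be told apart.

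Slc1a2 encodes a glutamate transporter that brings glutamate to the same cells. Its signal (probe set 10474141) was 10.97, 11.15 and 10.84 at 0 weeks, 10.88 and 10.72 at 2 weeks, and 9.32 and 10.96 at 4 weeks. Array 1 at 4 weeks stood alone, 3.12-fold below array 2 of that time, and the other 3 arrays after Cre lay inside or just below the control range. The difference was -0.85 at 4 weeks (SE 0.46, adjusted p = 0.333) and -0.52 after Cre (95% interval -1.46 to 0.43, adjusted p = 0.456). Which of the 4-week arrays is kept decides the value. Without array 2 at 4 weeks the difference at 4 weeks was -1.67 and passed in limma (adjusted p = 0.0428), as did the one after Cre (-0.93, adjusted p = 0.0332), with the lone 4-week array assumed to vary like the other groups. Without array 1 at 4 weeks the difference at 4 weeks was -0.02 (adjusted p = 0.989).

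Rhbg encodes an ammonium transporter of the Rhesus family. Its signal (probe set 10499329) was 9.14, 9.31 and 9.33 at 0 weeks, 8.94 and 9.38 at 2 weeks, and 8.43 and 9.16 at 4 weeks. Array 1 at 4 weeks was again the lowest, 1.65-fold below array 2, and both groups overlapped the controls. Rhbg differed from control by -0.46 at 4 weeks (SE 0.24, adjusted p = 0.312) and by -0.28 after Cre (95% interval -0.78 to 0.22, adjusted p = 0.440), short of the limma threshold. Without array 2 at 4 weeks these values were -0.83 and -0.46, and without array 1 at 4 weeks both were -0.10.

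Oat encodes ornithine aminotransferase, which converts ornithine towards glutamate. Its signal (probe set 10568568) was 12.56, 12.63 and 12.53 at 0 weeks, 12.59 and 12.72 at 2 weeks, and 12.27 and 12.74 at 4 weeks. Arrays after Cre lay on both sides of the controls, with array 1 at 4 weeks the lowest of all 7. The difference after Cre was 0.00 (95% interval -0.29 to 0.29, limma adjusted p = 0.998), so a change of more than 1.22-fold in either direction lies outside the interval of the fit.

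**Figure D1:**
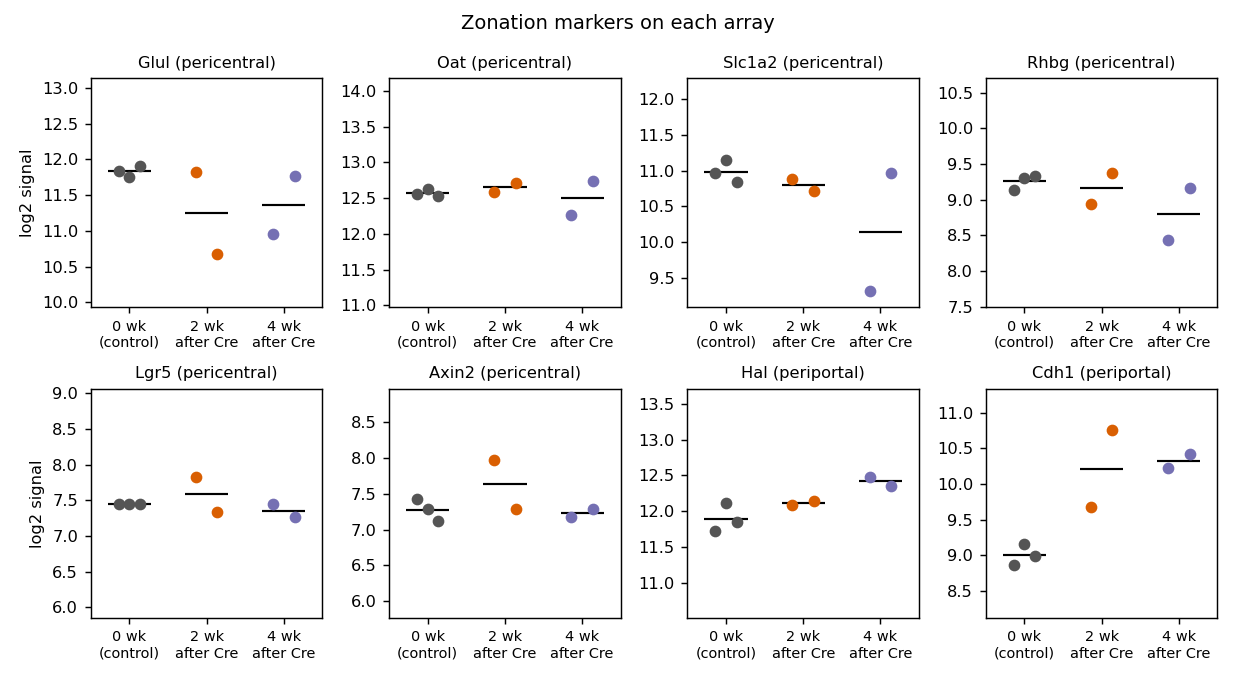
Log2 signal (y axis, one panel a gene, all panels equally high in log2 units) on each array by week after the Cre virus (x axis). Points are single arrays and black bars are group means. Glul, Slc1a2 and Rhbg have 1 low array at 4 weeks beside 1 near the controls, while all 4 arrays after Cre lie above the 3 controls for Cdh1.

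Lgr5 and Axin2 belong to the Wnt pathway itself. Their control means, 7.44 and 7.28, lay near the array medians (7.07 to 7.09), and no detection call was available. Whether Wnt signalling changed was not tested. Lgr5 is a receptor for R-spondins, and Axin2 is a scaffold of the complex that destroys beta-catenin and is itself induced by Wnt. The Lgr5 signal (probe set 10372503) was 7.44 on each of the 3 arrays at 0 weeks, 7.82 and 7.34 at 2 weeks, and 7.44 and 7.26 at 4 weeks. Its deposited value was identical on 4 of the 7 arrays, so the controls show no spread for this gene. A value repeated on 3 or more arrays occurred in 38.2% of the 16819 genes. Lgr5 differed from control by 0.02 after Cre (95% interval -0.27 to 0.32, limma adjusted p = 0.921), with the arrays after Cre on both sides of the control value.

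The Axin2 signal (probe set 10382228) was 7.42, 7.29 and 7.12 at 0 weeks, 7.98 and 7.29 at 2 weeks, and 7.18 and 7.29 at 4 weeks. Array 1 at 2 weeks was the highest for Axin2, as it was for Lgr5, and the other 3 arrays after Cre lay inside the control range. An identical Axin2 value stood on 3 arrays. Its difference was 0.36 at 2 weeks (SE 0.21, adjusted p = 0.380), -0.04 at 4 weeks (SE 0.21, adjusted p = 0.940) and 0.16 after Cre (95% interval -0.28 to 0.59, adjusted p = 0.621), and limma called none of these. Without array 1 at 2 weeks the difference after Cre was -0.02 for Axin2 and -0.09 for Lgr5.

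Hal encodes histidine ammonia-lyase, which takes the first step of histidine breakdown. Its signal (probe set 10365769) was 11.72, 12.12 and 11.85 at 0 weeks, 12.08 and 12.15 at 2 weeks, and 12.48 and 12.36 at 4 weeks. Both arrays at 4 weeks lay above every control and every 2-week array, whereas the 2-week arrays overlapped the highest control. The difference was 0.22 at 2 weeks (SE 0.12, adjusted p = 0.347) and 0.53 at 4 weeks (SE 0.12, 95% interval 0.23 to 0.83, adjusted p = 0.0535), a 1.44-fold higher mean that missed the limma threshold. After Cre it was 0.37 (95% interval 0.12 to 0.62, adjusted p = 0.0695). Control array 2 was the high one, and without it Hal passed at 4 weeks (0.64, adjusted p = 0.0447) and after Cre (0.48, adjusted p = 0.0443). Between 4 and 2 weeks the difference was 0.30 (SE 0.13, adjusted p = 0.700), and in order of mean the groups ran control, 2 weeks and 4 weeks, with no step between neighbours that passed the test.

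Cdh1 encodes E-cadherin, the adhesion protein of epithelial junctions, found on periportal hepatocytes and on bile duct cells. Its signal (probe set 10575052) was 8.86, 9.16 and 8.996 at 0 weeks, 9.67 and 10.76 at 2 weeks, and 10.23 and 10.42 at 4 weeks. All 4 arrays after Cre lay above all 3 controls, and the arrays at 2 weeks lay on either side of those at 4 weeks. Cdh1 rose after Cre by 1.26 log2 units, 2.40-fold (95% interval of the log2 difference 0.62 to 1.91, limma adjusted p = 0.0329). The separate differences were 1.21 at 2 weeks (SE 0.31, adjusted p = 0.0832) and 1.32 at 4 weeks (SE 0.31, adjusted p = 0.0563), and neither passed alone. The 2 times differed by 0.11 (SE 0.34, adjusted p = 0.976). The size did not hang on 1 array, but the call did. Leaving out control array 1, 2 or 3 gave 1.19, 1.34 and 1.26 with adjusted p = 0.117, 0.102 and 0.122. Leaving out array 1 or 2 at 4 weeks gave 1.31 and 1.21 with adjusted p = 0.0995 and 0.119. Without array 1 or 2 at 2 weeks the difference was 1.53 and 0.99, with 1 array left at that time. Such a fit leaves the 2.12-fold gap between the 2-week arrays out of the spread.

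Bile duct cells also express Cdh1, so their markers are given beside it. Of 10 bile duct and progenitor markers 7 were measured, and 1 of them, Sox9, rose after Cre (0.37, SE 0.07, limma adjusted p = 0.0298). Krt19, a duct keratin, differed by 0.09 (adjusted p = 0.725) and Epcam, a duct surface protein, by 0.03 (adjusted p = 0.904). The mean of the 7 markers was 6.58 to 6.76 at 0 weeks, 6.67 and 7.07 at 2 weeks, and 6.65 and 6.94 at 4 weeks. Array 2 at 2 weeks had both the highest marker mean and the highest Cdh1. All 7 markers had a positive difference after Cre, and Sox9 was above every control on all 4 arrays after Cre. The mean is moved by Onecut1, whose signal ran from 7.46 to 9.55. The median deviation of the 7 markers from the control mean was -0.05 to 0.01 at 0 weeks, -0.05 and 0.32 at 2 weeks, and 0.08 and 0.08 at 4 weeks. Both 4-week values are the deviation of Krt7, whose deposited value, 6.46, was identical on control array 2 and all 4 arrays after Cre. Muc1 likewise had an identical value, 6.14, on all 4 arrays after Cre. The origin of such repeated values is not known. Whether bile duct cells had a part in the Cdh1 difference was not tested.

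**Figure D2:**
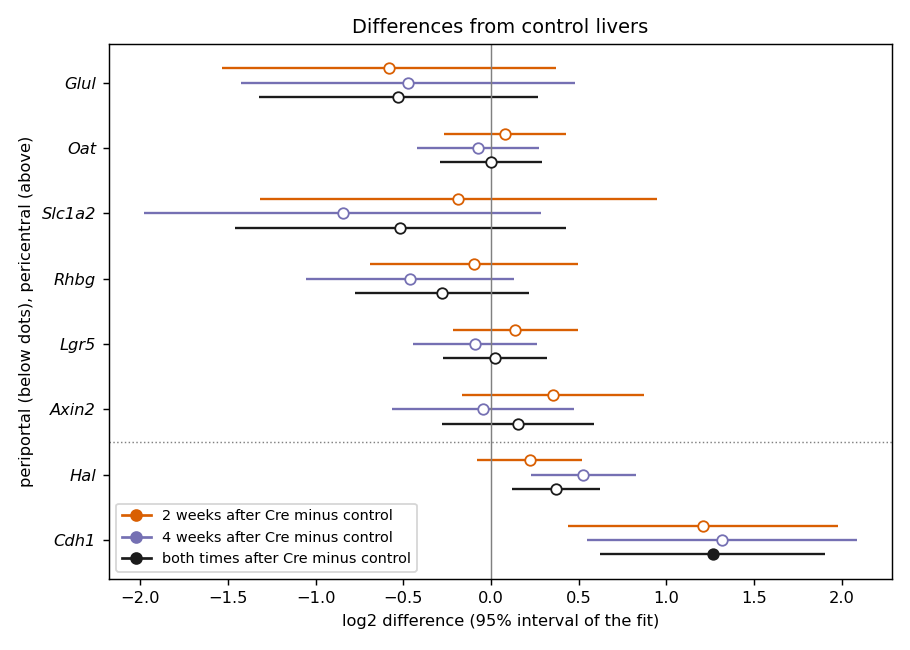
Log2 difference from control (x axis) for each gene (y axis), with the 95% interval of the fit as a line. Colours give 2 weeks, 4 weeks and the mean of both times, and a filled point passed an adjusted p of 0.05. The only filled point is Cdh1 after Cre, at 1.26, and the widest intervals belong to Slc1a2 and Glul.

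Across the 8 measured genes, limma called 0 at 2 weeks, against 5.93% of all genes, and 1 had an unadjusted p under 0.05, against 23% of all genes. It called 0 at 4 weeks, against 9.77% of all genes, with 2 at an unadjusted p under 0.05, against 24.8%. After Cre it called 1, Cdh1, against 12.9% of all genes, so the share of members called is close to that of all genes. Cdh1 was higher, as were 6.79% of all genes, and 0 members were called lower, against 6.12%. An unadjusted p under 0.05 after Cre was reached by 2 members, against 27.4%. At 4 weeks against 2 weeks it called 0, against 0.00595% of all genes, a single gene, and 0 had an unadjusted p under 0.05, against 7.43%. The arrays of both groups did not overlap for 1 member at 2 weeks (34.9% of all genes), for 2 at 4 weeks (39.8%), for 1 after Cre (25.1%) and for 1 between 4 and 2 weeks (26.6%). These were Cdh1 in the first 3 comparisons, Hal also at 4 weeks, and Hal between the times. The comparisons with control share the same 3 control arrays.

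The pericentral genes had a median log2 difference of -0.01 at 2 weeks, -0.28 at 4 weeks and -0.14 after Cre, where the median of all genes was 0.00, 0.01 and 0.00. All 6 were on the negative side at 4 weeks, and 3 of 6 after Cre. The median at 4 weeks rests mainly on array 1. On that array 4 of the 6 genes lay below all controls, and the mean deviation of the 6 from the control mean was -0.63. On array 2 at 4 weeks 1 of 6 lay below all controls and the mean deviation was -0.03. At 2 weeks 1 of 6 lay below all controls on array 1 and 3 of 6 on array 2, with 2 above all controls on each. The mean deviation of Hal and Cdh1 was 0.43 and 1.002 at 2 weeks and 0.90 and 0.94 at 4 weeks. Pericentral minus periportal, in mean deviation, was therefore below every control array on all 4 arrays after Cre, at -0.32, -1.21, -1.53 and -0.97, against 0.16, -0.15 and -0.01 on the control arrays. Cdh1 had the larger deviation of the 2 periportal genes on all 4 arrays, and this score over chosen genes was not tested. On array 1 at 2 weeks the low score came from Cdh1 (0.67). There the pericentral mean deviation was 0.11, and Hal deviated by 0.19, less than on control array 2 (0.22). The 26 further periportal genes measured had a median difference after Cre of -0.10.

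**Figure D3:**
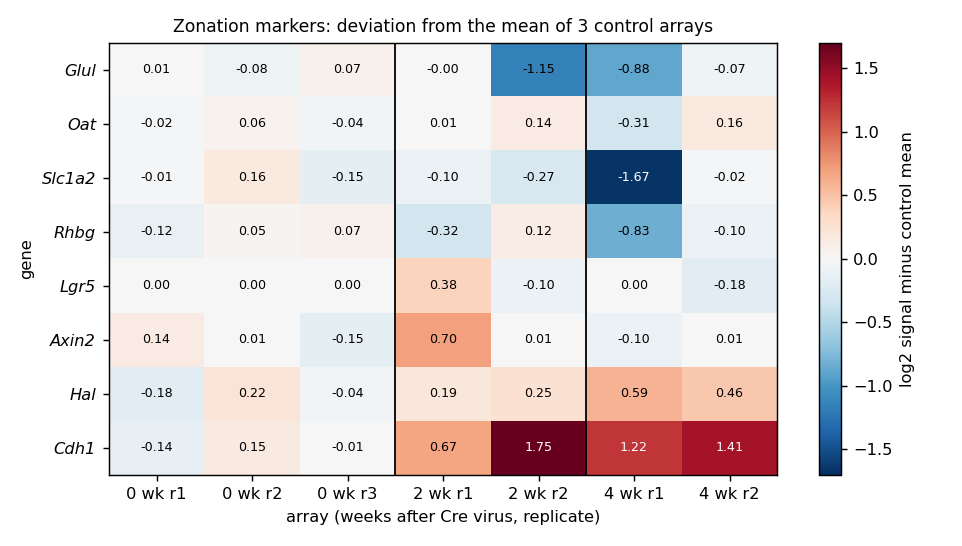
Deviation of each gene (y axis) on each array (x axis, week and replicate) from the mean of the 3 control arrays, in log2 units, as colour and printed value. Array 1 at 4 weeks is low for Glul, Slc1a2, Rhbg and Oat, array 2 at 2 weeks is low mainly for Glul (-1.15), and Cdh1 is high on all 4 arrays after Cre.

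The pericentral genes did not all vary together from array to array. Over the 7 arrays Oat, Slc1a2 and Rhbg had a Pearson r of 0.84 between Oat and Slc1a2, 0.83 between Oat and Rhbg and 0.86 between Slc1a2 and Rhbg. These values rest on array 1 at 4 weeks, without which they were -0.12, 0.22 and -0.16. Lgr5 and Axin2 had an r of 0.85, which rests on array 1 at 2 weeks and was -0.16 without it. Glul had an r of 0.61 with Slc1a2 and -0.75 with Cdh1, and Hal and Cdh1 had an r of 0.77. With 1 array left out, a step chosen after seeing the data, these 3 values ran from 0.59 to 0.96, from -0.93 to -0.57 and from 0.67 to 0.92. These values share the same 7 arrays and their group differences and are given as a description. Where 1 array stands apart, a high r can rest on that array alone. The genes most like each member over the 7 arrays were sought among the 16819, with predicted or clone-like names left out. They were Abhd1 (r = 0.992) and Wdr45 (0.987) for Glul, and Pced1b (0.994) and Ap1ar (0.992) for Slc1a2. For Oat they were Lacc1 (0.964) and Iqcn (0.964), for Rhbg Tst (0.965) and Ogfod3 (0.964), and for Axin2 Olfr106-ps (0.982) and Padi4 (0.976). For Lgr5 they were Abraxas1 (0.993) and Eps8l3 (0.988), for Hal Rassf5 (0.985) and Kcnmb4os1 (0.984), and for Cdh1 Aldoa (0.996) and Cfap36 (0.995). None of the genes named here is another of the 8 members. How high the best r among so many genes would be by chance was not tested.

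Of 30 further pericentral hepatocyte genes 26 were measured, and after Cre 2 rose and 3 fell, with a median difference of -0.03. For this list and those below, the shares over all genes were 6.79% higher and 6.12% lower. All these lists were chosen with earlier results of these data known. Cyp7a1, which opens the main route to bile acids, fell by 2.71 (SE 0.46, limma adjusted p = 0.0205). Sult5a1, a sulfotransferase, fell by 0.83 (adjusted p = 0.0175) and Prodh, proline dehydrogenase, fell by 0.62 (adjusted p = 0.00696). Cldn2, a pore-forming claudin, rose by 0.85 (adjusted p = 0.0192), and the fifth gene to pass was Ahr, the dioxin receptor, which also rose. The classical pericentral cytochrome Cyp2e1 differed by -0.04 (adjusted p = 0.537) and Aldh1a1, a retinal dehydrogenase, by -0.02 (adjusted p = 0.837). These were chosen as the brightest genes of the list that did not pass. Their signals, 14.24 to 14.34 and 13.56 to 13.82, lay near the top of the scale (14.7). The count of 5 was 1, a lower gene, without any one of the 3 control arrays and 3 without array 2 at 4 weeks.

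Of 30 further periportal genes 26 were measured, and 4 rose and 4 fell, with a median of -0.10. Asl, the argininosuccinate lyase of the urea cycle, was 11.88 and 11.83 at 2 weeks and 11.78 and 11.80 at 4 weeks, and 12.72, 12.64 and 12.63 on the control arrays. It fell by 0.84 (SE 0.04, limma adjusted p = 0.0012), with no overlap between the groups. Arg1, the arginase of the cycle, fell by 0.42 (adjusted p = 0.0167), and Pigr, a receptor that carries immunoglobulins into bile, fell by 0.46 (adjusted p = 0.0179). Ctsc, a lysosomal protease, rose by 0.73 (adjusted p = 0.0255). Cps1, the entry enzyme of the urea cycle, differed by -0.01 (adjusted p = 0.944) and the periportal cytochrome Cyp2f2 by 0.01 (adjusted p = 0.923). Their signals, 14.04 to 14.12 and 13.68 to 13.81, also lay near the top of the scale. The Cps1 value was identical on control array 3, array 2 at 2 weeks and both arrays at 4 weeks. Without array 1 at 2 weeks the split was also 4 higher and 4 lower, but it changed with each of the other arrays left out. It was 1 higher and 1 lower without control array 1, 0 higher and 1 lower without control array 2 or 3 or array 1 at 4 weeks, and 1 higher and 2 lower without array 2 at 4 weeks. Without array 2 at 2 weeks it was 1 higher and 8 lower.

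**Figure D4:**
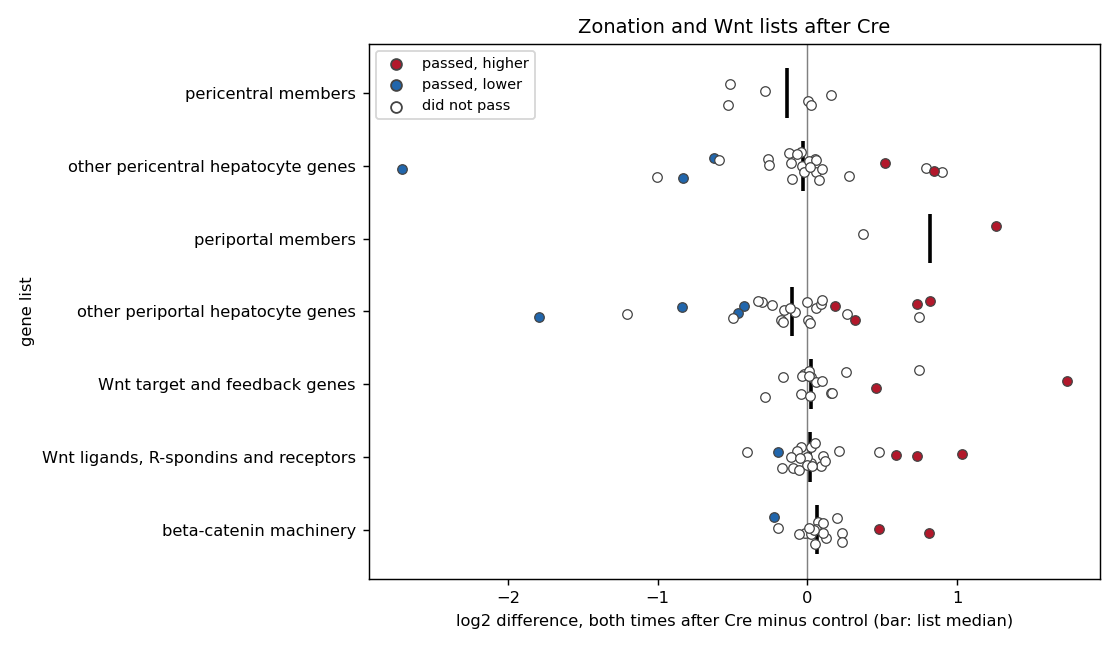
Log2 difference after Cre minus control (x axis) for every measured gene of the zonation and Wnt lists (y axis). Red and blue points passed an adjusted p of 0.05 as higher and lower, open points did not pass, and a bar marks the list's median. With all 7 arrays the medians of the longer lists lie near 0.

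A list of histidine genes had 4 of 5 measured. These were Amdhd1, Uroc1 and Ftcd of the breakdown pathway of Hal, and Hdc, which lies outside that pathway. Carnmt1 was not measured. Amdhd1, the imidazolonepropionase further down the pathway, was the one that passed, with 11.00 and 11.31 at 2 weeks and 11.38 and 11.38 at 4 weeks, and 10.11, 10.69 and 10.54 on the control arrays. Its difference after Cre was 0.82 (SE 0.16, limma adjusted p = 0.0275). Uroc1, the urocanase between them, differed by 0.10 (adjusted p = 0.638) and Ftcd, which ends the pathway, by 0.01 (adjusted p = 0.882). Without control array 2 or 3, array 2 at 2 weeks or either array at 4 weeks the count was 0.

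Genes that handle glutamine, glutamate and ammonium, the trade of Glul, Slc1a2, Rhbg and Oat, were measured for 18 of 23, with 3 higher, 4 lower and a median of -0.12. Slc1a4, a transporter of neutral amino acids and a relative of Slc1a2, rose by 0.97 (SE 0.14, limma adjusted p = 0.0143). Aqp8, an aquaporin that also passes ammonia, rose by 1.19 (adjusted p = 0.0145). Gpt2, the mitochondrial alanine aminotransferase, fell by 0.83 (adjusted p = 0.0166), and Prodh is given above. Slc38a4 and Slc7a2, carriers of amino acids, differed by -0.06 (adjusted p = 0.471) and -0.49 (adjusted p = 0.0676). The count of 7 was between 1 and 3 without any one control array or any one array at 4 weeks.

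In the urea cycle 3 of 7 measured genes passed, all lower. Besides Asl and Arg1 this was Nags, which makes the activator of Cps1 and fell by 0.32 (SE 0.04, limma adjusted p = 0.0091). Slc25a13, the mitochondrial aspartate carrier, differed by 0.04 (adjusted p = 0.551).

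Of the genes of serine, threonine and glycine, the pathway of Sds, 13 of 15 were measured, with 3 higher and 1 lower. Gldc and Amt of the glycine cleavage system rose by 1.19 (SE 0.13, limma adjusted p = 0.00725) and 1.05 (adjusted p = 0.0276), while Gcsh, of the same system, fell by 0.60 (adjusted p = 0.011). Agxt, the alanine-glyoxylate aminotransferase, rose by 1.13 (adjusted p = 0.02). Gnmt and Sardh, which methylate glycine and demethylate sarcosine, differed by -0.04 (adjusted p = 0.685) and 0.04 (adjusted p = 0.689). The count of 4 was 2 without control array 2 or 3 or either array at 4 weeks.

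Fasting and glucagon genes, a programme that also induces Sds, were measured for 15 of 16, with 1 higher and 2 lower. Igfbp1, a binding protein of insulin-like growth factors, rose by 1.59 (SE 0.32, limma adjusted p = 0.0304), and Tat, tyrosine aminotransferase, fell by 0.62 (adjusted p = 0.0334), as did Gpt2 above. Pck1, the key enzyme of glucose synthesis, differed by 0.09 (adjusted p = 0.627) and Tdo2, which opens tryptophan breakdown, by -0.02 (adjusted p = 0.747). The count of 3 was 0 or 1 without any one control array or any one array at 4 weeks.

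Wnt target and feedback genes, a list that holds Lgr5 and Axin2, were measured for 17 of 18, with 2 higher and a median of 0.02. With the dimmest 0.33 of genes left out, 14 of the 17 stayed. Ccnd1, the cell cycle protein cyclin D1, rose by 1.74 (SE 0.28, limma adjusted p = 0.0175) and Prox1, a hepatocyte transcription factor, by 0.46 (adjusted p = 0.0365). Rnf43, a ligase that removes Frizzled receptors, differed by 0.26 (adjusted p = 0.430) and Notum, a secreted Wnt inhibitor, by -0.04 (adjusted p = 0.601). The count of 2 was 0 without any one control array or any one array at 4 weeks.

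All 24 Wnt ligands, R-spondins, receptors and secreted inhibitors of the list were measured, with 3 higher, 1 lower and a median of 0.02. Only 15 of the 24 stayed when the dimmest 0.33 of genes were left out, with 3 higher and 2 lower. The median near 0 therefore rests partly on dim genes, for which no detection call was available. The Wnt coreceptor Lrp5 was 9.92 and 9.75 at 2 weeks and 9.67 and 9.77 at 4 weeks, and 9.12, 9.01 and 9.02 on the control arrays, with no overlap. Lrp5 rose by 0.73 (SE 0.06, limma adjusted p = 0.00452) and its partner Lrp6 by 0.59 (adjusted p = 0.0125). The receptor Fzd6 rose by 1.03 (adjusted p = 0.0212) and Fzd4 fell by 0.19 (adjusted p = 0.0226). Lgr4, the R-spondin receptor closest to Lgr5, differed by 0.10 (adjusted p = 0.182) and Fzd8 by -0.40 (adjusted p = 0.0612). Wnt2, Wnt9b and Rspo3, made by liver endothelium, differed by 0.09, 0.02 and 0.21 and did not pass. Rspo3 was above every control on all 4 arrays after Cre, while Wnt2 and Wnt9b overlapped the controls. Of all genes, 25.1% had no such overlap, in either direction. Of the 10 endothelial markers, which include Wnt9b and Rspo3 themselves, 1 passed in any of the comparisons, Clec4g at 4 weeks (0.60, adjusted p = 0.0438). Their mean was 8.52 to 8.58 at 0 weeks, 8.42 and 8.71 at 2 weeks, and 8.62 and 8.77 at 4 weeks, and their part in the differences was not tested. The count of 4 was 1 without control array 2 or 3 or array 1 at 4 weeks, and 2 without array 2 at 4 weeks.

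Of a list of 18 genes, the beta-catenin machinery together with Hnf4a, all were measured, and 2 rose and 1 fell. Ctnnb1, beta-catenin itself, was 11.18 and 11.29 at 2 weeks and 11.26 and 11.22 at 4 weeks, and 10.73, 10.78 and 10.77 on the control arrays. It rose by 0.48, with no overlap (SE 0.04, limma adjusted p = 0.0046). Bcl9, a coactivator of beta-catenin, rose by 0.81 (adjusted p = 0.0111) and Cby1, an antagonist, fell by 0.22 (adjusted p = 0.0447). Csnk1a1, a kinase of the destruction complex, differed by 0.13 (adjusted p = 0.216) and Hnf4a, a transcription factor of hepatocyte identity, by 0.01 (adjusted p = 0.902).

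Beta-catenin also sits at the junction with E-cadherin, and a list of 15 genes tied to Cdh1, all measured, holds 10 cadherin and junction proteins and 5 transcription factors known to repress Cdh1. The median difference after Cre of the 15 was 0.30, where that of all genes was 0.00. Of the 15, 6 rose, all of them junction proteins, where 6.79% of all genes rose. The list was built around Cdh1 with earlier results of these data known, so these values are a description. Jup, plakoglobin, rose by 0.78 (SE 0.10, limma adjusted p = 0.00999), Nectin1, a junction adhesion protein, by 0.58 (adjusted p = 0.0171) and Ctnnd1, p120 catenin, by 0.53 (adjusted p = 0.0231). The others were Ctnnb1, the cadherin Cdh2 and Afdn, which ties nectins to actin. Ctnna1, alpha-catenin, differed by 0.30 (adjusted p = 0.0541) and Nectin3 by 0.31 (adjusted p = 0.0608). Of the repressors, Snai1 differed by 0.17 (adjusted p = 0.268), Snai2 by -0.10 (adjusted p = 0.789), Zeb1 by 0.10 (adjusted p = 0.266), Zeb2 by 0.24 (adjusted p = 0.0543) and Twist1 by -0.14 (adjusted p = 0.358), and limma called 0 of these 5, with 1 at an unadjusted p under 0.05. On all 4 arrays after Cre Cdh1, Jup, Ctnnd1, Ctnnb1 and Nectin1 were above every control. So were Cdh2, Ctnna1, Nectin3, Afdn and the repressor Zeb2. Of all genes, 25.1% had no overlap between the arrays after Cre and the controls, in either direction. The count of 6 was 2, 1 and 1 without control array 1, 2 and 3, and 2 and 3 without array 1 and 2 at 4 weeks. Markers of stellate cells, which express Cdh2, averaged 8.25 to 8.30 at 0 weeks, 8.50 and 8.67 at 2 weeks, and 8.40 and 8.48 at 4 weeks, and 2 of 10, Pdgfrb and Hgf, rose after Cre. The part of stellate cells in these differences was not tested.

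**Figure D5:**
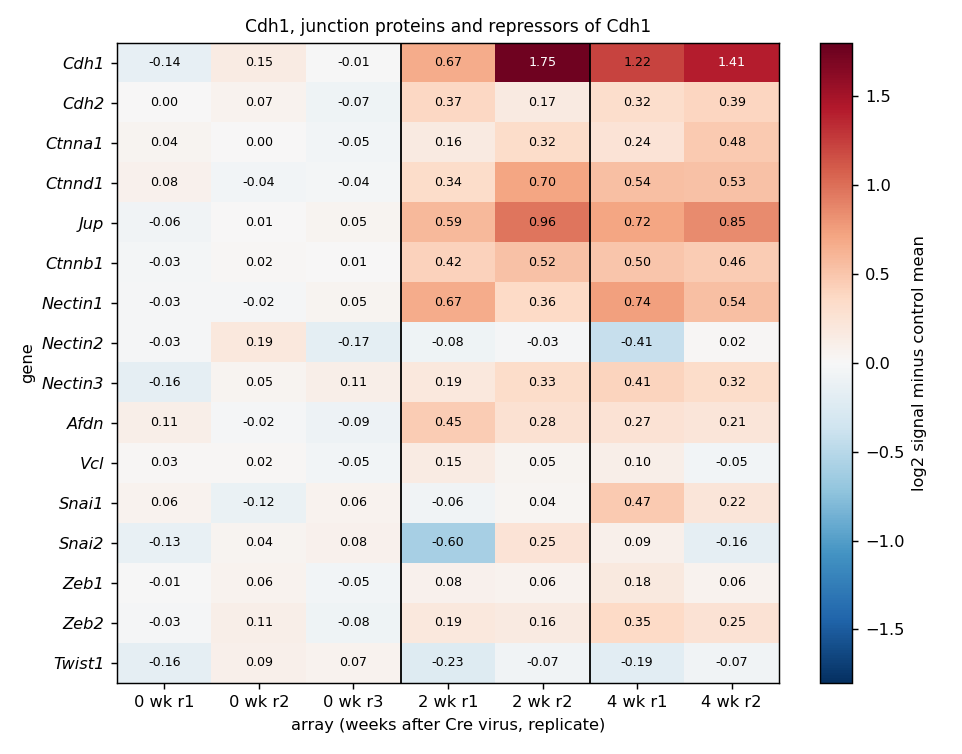
Deviation of Cdh1 and the 15 genes of its list, 10 junction proteins and 5 transcription factors (y axis), on each array (x axis, week and replicate) from the control mean, in log2 units, as colour and printed value. Cdh1 shows the largest deviation, 1.75 on array 2 at 2 weeks. Besides Cdh1, Jup, Ctnnd1, Ctnnb1, Nectin1, Cdh2, Ctnna1, Nectin3, Afdn, Zeb1 and Zeb2 are positive on all 4 arrays after Cre.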

How the data were processed

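RNA of 7 whole livers was measured on Affymetrix arrays. Per the deposited table, values are log2 signals of probe sets, a scale read from their range (3.15 to 14.7). The submitters' processing notes name GCOS 1.4, with no role, and no summarisation or normalization method is given in the sources used here. The platform annotation gives 1 gene symbol to 17709 of 21093 probe sets, several to 187 and none to 3197. Of 463 genes with several probe sets the brightest was kept, and each of the 8 members had 1.

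The authors' log2 values were used as deposited, without scaling or filter. One linear model over the 3 labelled groups was fitted to 16819 genes with limma 3.58.1 in R 4.3.3 (lmFit, eBayes, 4 residual and 1.69 prior degrees of freedom), two-sided, with Benjamini-Hochberg adjustment over all genes and a threshold of 0.05. P-values weigh a group difference against the spread of these arrays within their groups, moderated over all genes. The limma fit of the comparison after Cre was run on simulated independent normal values with planted differences. These held no repeated values and no outlying arrays, and the other steps were not simulated. The members and lists (261 entries, 237 measured) were chosen with earlier results of these data known. Each list gave up to 4 passing genes by smallest adjusted p and up to 2 others by highest mean, and each member its 2 most correlated genes, leaving out clone-like names. Ahr, Cdh2, Afdn, Wnt2, Wnt9b, Rspo3, the repressors of Cdh1 and the cell type markers fall outside that rule. Kupffer cell markers had a median difference after Cre of -0.01. Alternatives were other variance priors, scalings, filters, probe set rules, array weights, the replicate number as a block and leaving out each array.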

Additional observations from a re-analysis of the deposited data

Results flagged for a closer look

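Cyp2f2, a cytochrome of periportal hepatocytes, lay below all control arrays at 2 weeks and above all of them at 4 weeks. Its signal was 13.73, 13.73 and 13.71 at 0 weeks, 13.70 and 13.68 at 2 weeks, and 13.74 and 13.81 at 4 weeks. Between 4 and 2 weeks it differed by 0.0833 log2 units (SE 0.04), which did not pass the limma test (adjusted p = 0.749).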

How the results depend on the processing

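The number of members called after Cre, 1, was also 1 under the variance prior with a trend, the robust prior, quantile normalization, centred medians, all probe sets, averaged probe sets and array weights. It was 2 with the dimmest 0.33 of genes left out, where Hal joined Cdh1 (adjusted p = 0.0436). It was 0 with the replicate number as a block, where Cdh1 kept its 1.26 (adjusted p = 0.100). Correlations of same-number deviations ran from -0.07 to 0.11. In groups of 2 arrays the deviations mirror each other, so these correlations cannot decide whether the numbers pair the arrays. Under this block 5 genes were called after Cre, against 2171 without it, and 0 in each list. At 4 weeks the count, 0, was 1 with only the compared groups, quantile normalization or array weights, and 2 with the robust prior, centred medians or the dimmest genes left out. Leaving out 1 array gave 0 to 1 members at 2 weeks, at 4 weeks and after Cre and 0 between the times, with 570 to 2788 genes called after Cre. Without control array 2 the member called was Hal, both at 4 weeks and after Cre, and that fit kept both arrays at each time after Cre. The other calls came from fits that left only 1 array at 2 or at 4 weeks. The member called at 2 weeks was Cdh1 without array 1 of that time (1.75), with the lone array left assumed to vary like the others. Why calls moved was not tested, beyond the fewer arrays or genes of those settings.

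Signs turned mostly where differences were near 0. After Cre this was Oat with centred medians (-4.1e-04), the block (-0.018) and array weights (-0.0052), Hnf4a and Ftcd with quantile normalization (-0.012 and -0.015), Tdo2 with the block (0.0039) and Cps1 with array weights (4.9e-04). With 1 array left out, differences after Cre ran from -0.12 to 0.12 for Oat, -0.095 to 0.14 for Lgr5, -0.018 to 0.33 for Axin2, -0.066 to 0.019 for Aldh1a1, -0.025 to 0.017 for Cps1, -0.011 to 0.025 for Cyp2f2, -0.0060 to 0.022 for Hnf4a, -0.022 to 0.050 for Ftcd, -0.0049 to 0.20 for Uroc1, -0.082 to 0.0021 for Gnmt, -4.8e-05 to 0.086 for Sardh and -0.042 to 0.0039 for Tdo2. At 4 weeks Oat ran from -0.31 to 0.16 and Axin2 from -0.12 to 0.028, and at 2 weeks Rhbg ran from -0.32 to 0.12 and Lgr5 from -0.10 to 0.38. Between 4 and 2 weeks the ranges were -0.47 to 0.68 for Glul, -0.39 to 0.083 for Oat, -1.48 to 0.16 for Slc1a2, -0.47 to 0.0095 for Lgr5 and -0.43 to 0.65 for Cdh1.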
